A study of Mus musculus with 24 samples.

Results

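The genes described here encode the voltage-gated sodium, potassium and calcium channels of the mouse. They were taken by symbol: the sodium channel alpha and beta subunits (Scn followed by a number and a or b), the potassium channel families Kcna, Kcnb, Kcnc, Kcnd and Kcnq, and the calcium channel pore subunits Cacna1a to Cacna1i with Cacna1s. In all, 46 of the 30153 genes in the table met this rule, and 0 of them were listed at 0 in every library. There were 10 sodium channel alpha subunits (Nav alpha) and 4 beta subunits. The potassium channel genes comprised 8 of the Kv1 family (Kcna), 2 of Kv2 (Kcnb), 4 of Kv3 (Kcnc), 3 of Kv4 (Kcnd) and 5 of Kv7 (Kcnq). The calcium channel genes comprised 4 of Cav1 (the L-type channels), 3 of Cav2 (the P/Q-, N- and R-type channels) and 3 of Cav3 (the T-type channels).

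Voltage-gated channels open when the membrane depolarises. Sodium channel alpha subunits carry the upstroke of the action potential, and their beta subunits set gating and placement at the membrane. Potassium channels end the action potential or hold the cell below threshold, and calcium channels couple depolarisation to transmitter release and gene expression. Most of them are known from neurons and muscle. Kidney tubules express few, among them Kcnq1, which with the small subunit Kcne1 forms a slowly activating potassium channel in proximal tubule and heart.

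Transcript levels as TPM, a measure adjusted for gene length and scaled to the library total, were available for 24 libraries of poly(A) RNA, 4 animals in each of 6 groups, all labelled kidney and strain C57/BL6. On western diet there were Hap-I aged mice, Hap-I adults and Hap-II adults. Without a diet in the label there were Hap-I aged mice, Hap-I adults and C57 adults. The title concerns hypertensive animals with an overexpressed human angiotensin receptor type 1, Hap-I and Hap-II stand for haplotypes I and II in the labels, and C57 adults are labelled with no haplotype. The sources used here do not give ages in numbers, sex, the promoter of the transgene or the number of founder lines.

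In 2 of the 6 groups the markers went against the tissue label. The 8 libraries of Hap-I aged and Hap-I adult mice without western diet had a summed level of 10 neuronal markers of 4660 to 5017 TPM (aged) and 4247 to 4854 TPM (adult), against 6.97 to 13.3 TPM in C57 adults, and no library on western diet exceeded 4.37 TPM. Their summed thick ascending limb markers reached at most 51.2 TPM, against 1827 to 3425 TPM in C57 adults. These 8 are called brain-like below and the other 16 kidney-like. Transcripts encoded by mitochondrial DNA made up 21.4 to 35.7% of TPM in Hap-I aged mice on western diet, 25.0 to 34.7% in Hap-I adults fed it, 21.2 to 27.8% in Hap-II adults fed it and 12.4 to 16.9% in C57 adults. In the brain-like libraries they made up 11.3 to 22.5% in Hap-I aged mice and 13.2 to 26.4% in Hap-I adults. In a bulk library, fewer cells of a type and less RNA per cell cannot be told apart, and read depth is unknown because TPM carry no totals.

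The channel genes were abundant in the brain-like libraries and near 0 in most others. The group means of the 46 genes summed to 1477 TPM in Hap-I aged mice and 1247 TPM in Hap-I adults. In kidney-like groups the sums were 19.0 TPM in Hap-I aged mice on western diet, 12.4 TPM in Hap-I adults fed it, 19.4 TPM in Hap-II adults fed it and 53.3 TPM in C57 adults. A mean of at least 10 TPM was reached by 28 genes in Hap-I aged mice and 27 in Hap-I adults, against 2 in C57 adults and 0 in each group on western diet. For 33 of 46 genes, all 8 brain-like libraries lay above all 16 kidney-like libraries, against 28.4% of the 23787 genes with any signal. The other 13 overlapped, and 0 lay wholly below.

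**Figure D1:**
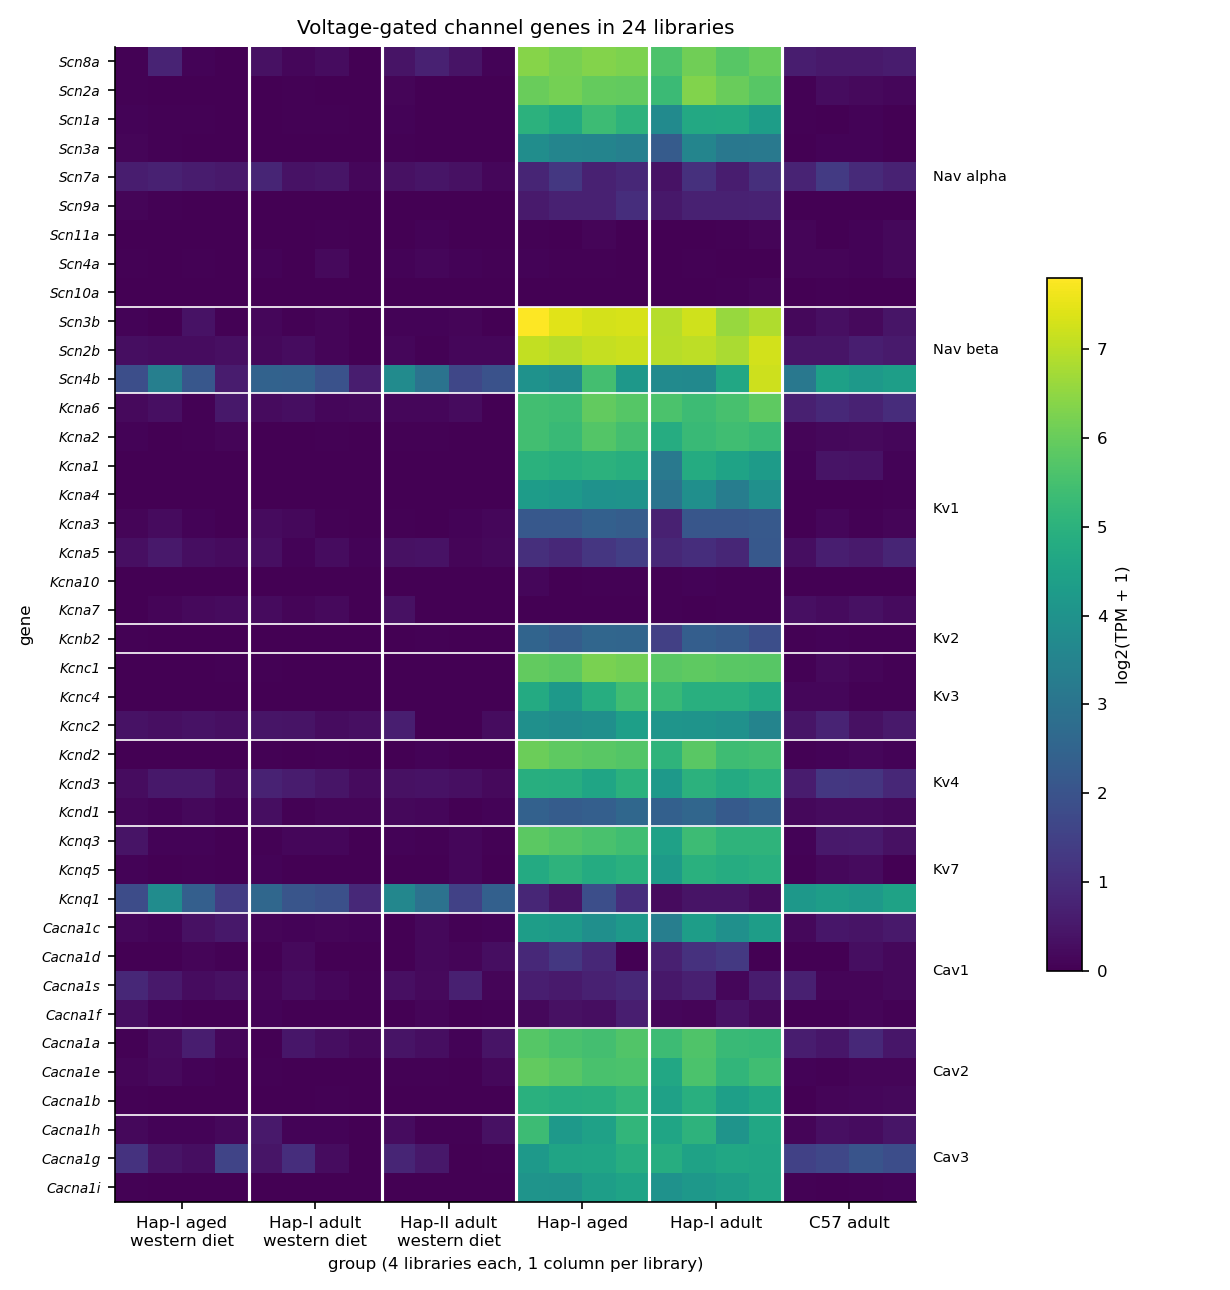
Levels of 40 of the channel genes, as log2(TPM + 1), with a row per gene grouped by family and a column per library. The 8 Hap-I libraries without western diet are bright in most rows. In the 16 others Kcnq1 and Scn4b stand out from a dark field.

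Among the sodium channel alpha subunits of the brain-like libraries, Scn8a and Scn2a led. Scn8a, the subunit concentrated at mature axon initial segments and nodes, stood at 82.1, 72.2, 80.2 and 76.3 TPM in Hap-I aged mice and at 48.6, 67.5, 54.3 and 61.9 TPM in Hap-I adults. Scn2a, the subunit of unmyelinated axons and early initial segments, stood at 64.3, 71.8, 61.7 and 59.4 TPM in Hap-I aged mice and at 38.5, 78.7, 64.2 and 53.3 TPM in Hap-I adults. The aged libraries all lay above the adult ones for Scn8a, and the ages overlapped for Scn2a. In C57 adults the means were 0.482 TPM for Scn8a and 0.117 TPM for Scn2a. Of the summed alpha subunit level, Scn8a took 41.5 ± 1.46% and Scn2a 34.4 ± 3.33% in Hap-I aged mice (SD, n = 4), and 40.3 ± 5.28% and 39.5 ± 3.13% in Hap-I adults. These shares did not differ beyond the spread in adults. Scn1a, prominent in inhibitory interneurons, took 17.2 ± 2.74% in aged mice and 13.9 ± 2.10% in adults, and Scn3a, mainly an embryonic subunit, 5.81 ± 0.711% and 4.96 ± 0.983%. The other 6 alpha subunits, including the skeletal muscle gene Scn4a and the sensory neuron genes Scn9a, Scn10a and Scn11a, had means under 1 TPM in all 6 groups.

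Beta subunits Scn3b and Scn2b had higher means than any pore-forming gene in both brain-like groups. Scn3b had 222.1, 173, 156.5 and 161 TPM in Hap-I aged mice and 120.5, 150.1, 96.1 and 116 TPM in Hap-I adults, and each aged library was above each adult one. Scn2b stood at 135.5, 124, 136 and 144 TPM in aged mice and 123.5, 129, 112 and 154 TPM in adults. The ages overlapped for Scn2b.

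Scn4b, a beta subunit known for resurgent sodium current and for high expression in the striatum, varied more between libraries than the other beta subunits. It stood at 14.8, 13.0, 43.7 and 17.0 TPM in Hap-I aged mice and at 12.2, 12.2, 24.8 and 148 TPM in Hap-I adults, against 7.71, 20.8, 17.4 and 19.8 TPM in C57 adults. The brain-like and C57 libraries overlapped, and Scn4b was 1 of 3 genes, among the 28 with a mean of 5 TPM or more in a brain-like group, whose C57 mean exceeded 5% of the Hap-I adult mean. Adult library 4, the highest for Scn4b, was also the highest of the 8 for all 8 striatal markers examined, a list chosen after these values were seen. There Ppp1r1b, a dopamine-regulated phosphatase inhibitor, reached 671.5 TPM and Drd2, a dopamine receptor, 50.7 TPM. The 3 other adult libraries had 73.4 to 79.2 TPM of Ppp1r1b and 1.96 to 2.33 TPM of Drd2. Aged library 3, the next for Scn4b, was second for all 8 markers, with 115 TPM of Ppp1r1b and 4.00 TPM of Drd2. The part of striatal content in the Scn4b values was not tested.

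**Figure D2:**
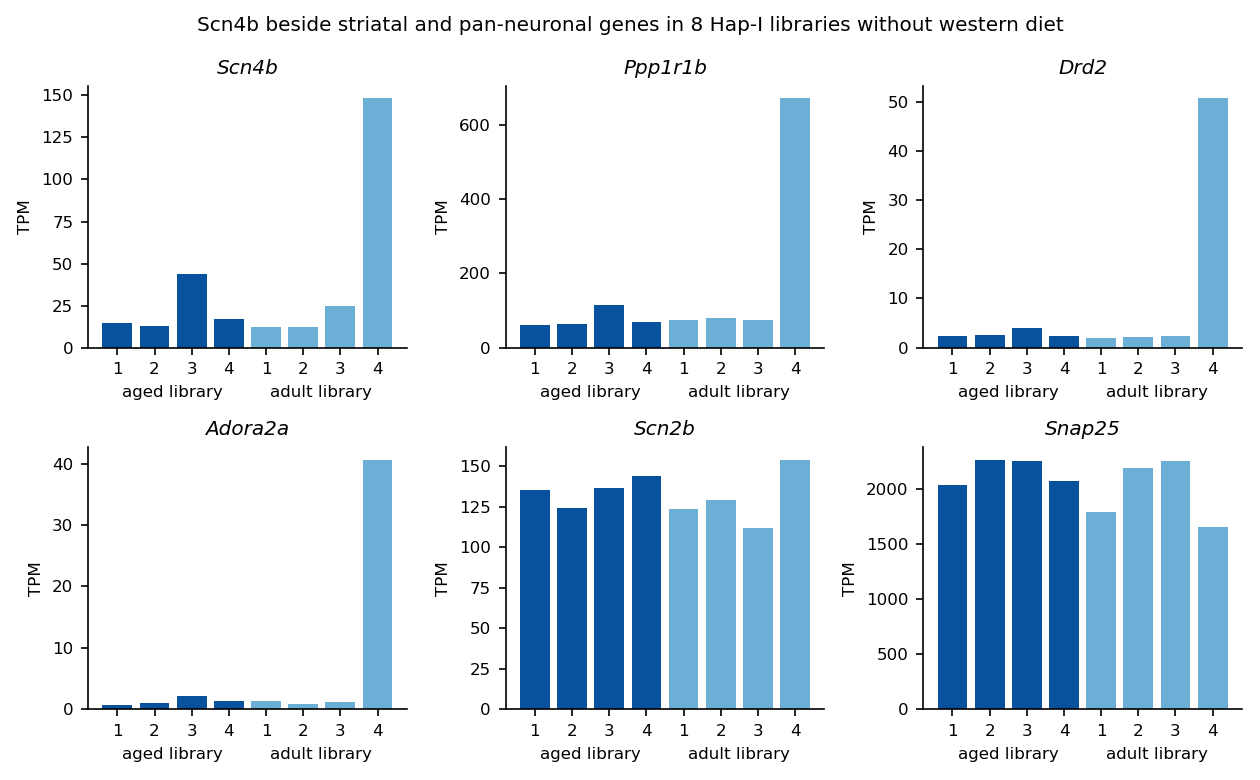
TPM of Scn4b, 3 striatal genes (Ppp1r1b, Drd2, Adora2a), Scn2b and the synaptic gene Snap25 in the 8 brain-like libraries, dark bars for Hap-I aged and light bars for Hap-I adult mice. Scn4b and the striatal genes peak in adult library 4, followed by aged library 3, while Scn2b stays between 112 and 154 TPM.

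Scn4b and Scn2b are neighbours on GRCm38 chromosome 9, Scn2b at 45117782 to 45130070 and Scn4b at 45138395 to 45154152, both on the forward strand and 8324 bases apart. Their levels contrasted in the kidney-like C57 libraries. Scn2b averaged 130 ± 17.6 TPM in the brain-like Hap-I adults and 0.451 ± 0.112 TPM in C57 adults (SD, n = 4), and Scn4b 49.4 ± 66.2 TPM and 16.4 ± 5.99 TPM. Several other neighbours within 500 kb also differed in level. On chromosome 2, Scn1a averaged 20.7 TPM in Hap-I adults beside Scn9a at 0.597 TPM and Scn7a at 0.769 TPM. On chromosome 3, Kcna2 averaged 36.3 TPM beside Kcna3 at 2.65 TPM and Kcna10 at 0.0405 TPM, while Kcnc4 nearby had 30.3 TPM. On chromosome 6, Kcna6 averaged 47.4 TPM beside Kcna5 at 1.53 TPM, with Kcna1 at 18.7 TPM between them.

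In the Kv1 family, whose members form low-threshold channels of axons, Kcna6 and Kcna2 led. Kcna6 ranged from 40.7 to 59.6 TPM in Hap-I aged mice and from 40.1 to 57.3 TPM in Hap-I adults, and Kcna2 from 38.0 to 52.0 TPM and from 27.6 to 41.7 TPM. Kcna1, a partner of Kcna2 beside nodes, had 28.5 to 31.2 TPM in aged mice and 7.94 to 26.9 TPM in adults, without overlap. It was listed at 0 in all 12 libraries on western diet, as were Kcna4, an axonal subunit with fast inactivation, and Kcna10. Kcna4 averaged 16.5 TPM in Hap-I aged mice and 10.9 TPM in Hap-I adults. Kcna3, best known from T cells, and Kcna5, a vascular and atrial subunit, averaged 3.76 and 1.25 TPM in aged mice and 2.65 and 1.53 TPM in adults. Kcna7 stayed under 0.3 TPM in every library.

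Of the Kv2 genes, which form delayed rectifiers, Kcnb2 had 4.75, 3.96, 4.90 and 4.84 TPM in Hap-I aged mice and 1.78, 4.02, 3.64 and 2.64 TPM in Hap-I adults. Cacna1d, the L-type channel of neuronal and endocrine pacemaking, was low, between 0 and 1.44 TPM in the 8 libraries. The sources used here do not give how the quantification treated the transcripts of Cacna1d, so these values are listed levels and not a statement on the tissue.

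Kv3 channels allow fast spiking, and Kcnc1 was the highest of them, with 60.3, 56.5, 73.9 and 69.7 TPM in Hap-I aged mice and 55.4, 57.8, 55.0 and 53.2 TPM in Hap-I adults. Kcnc4 averaged 28.3 ± 9.88 TPM in aged mice and 30.3 ± 5.02 TPM in adults (SD, n = 4), and Kcnc2 15.2 ± 3.29 and 14.0 ± 2.42 TPM. Of the Kv4 genes, which carry the transient current of dendrites, Kcnd2 took 64.1 ± 3.47% of the family level in aged mice and 58.4 ± 2.58% in adults. Kcnd3 took 30.98 ± 3.00% and 35.6 ± 3.39%, and Kcnd1 4.91 ± 0.680% and 6.04 ± 1.20%.

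Among the Kv7 genes, Kcnq3, a subunit of the neuronal M-current, had 56.0, 49.9, 46.5 and 41.1 TPM in Hap-I aged mice and 21.2, 40.1, 32.9 and 32.8 TPM in Hap-I adults, and each aged library was above each adult one. It took 25.0 ± 2.00% of the Kv7 level in aged mice and 21.4 ± 1.65% in adults, and Kcnq5, a broader M-current subunit, took 14.97 ± 1.70% and 17.8 ± 0.939%. Kcnq1 took 0.653 ± 0.598% in Hap-I aged mice and 0.168 ± 0.0534% in Hap-I adults, against 96.9 ± 1.56% in C57 adults.

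Calcium channel genes differed in how far a single gene led its family. Among the Cav2 genes of presynaptic terminals, Cacna1e (R-type) ranged from 46.6 to 60.0 TPM in Hap-I aged mice and from 24.4 to 47.2 TPM in Hap-I adults. Cacna1a (P/Q-type) ranged from 42.9 to 52.7 TPM and from 36.4 to 49.1 TPM, and Cacna1b (N-type) from 28.3 to 34.4 TPM and from 20.1 to 29.3 TPM. The ages overlapped for all 3. Cacna1a and Cacna1e did not differ beyond their spread in either group. The T-type genes of burst firing, Cacna1h, Cacna1g and Cacna1i, averaged 28.1, 22.8 and 18.1 TPM in aged mice and 23.7, 24.2 and 18.4 TPM in adults. Cacna1c, the main L-type gene of brain and heart, took 91.0 ± 1.98% of the Cav1 level in aged mice and 91.3 ± 3.82% in adults. These shares take Cacna1d at its listed levels, so the limit given above for Cacna1d holds for them too. The skeletal muscle gene Cacna1s and the retinal gene Cacna1f stayed under 1 TPM in every library.

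A mean under 1 TPM in all 6 groups was found for 12 of the 46 genes, among them Scn4a, Scn7a, Scn9a, Scn10a, Scn11a, Kcna7, Kcna10, Cacna1d, Cacna1f and Cacna1s. Their highest group means ranged from 0.0264 TPM (Scn10a) to 0.951 TPM (Scn7a, in C57 adults). No member had a near-identical copy in the annotation. The largest share of its transcript words of 31 bases found in any other gene was 9.57%, for Scn3a.

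Promoter sequence is shown for 2 genes high in the brain-like libraries and 2 near 0 there, to show examples of CG-rich and CG-poor windows. RefSeq windows on GRCm38.p6, from 250 bases before to 50 after a gene's start, existed for 30 of the 46 genes. Taking the window richest in CG per gene, the 18 windows of members at 5 TPM or more in a brain-like group held 2 to 57 CG (median 21.5), and the 10 of members under 1 TPM held 0 to 63 (median 4.5). The median over 27025 genes was 8. The ranges overlapped, since Scn2b, among the most abundant, had 2 CG and Cacna1d, under 1 TPM, had 63. The letters GGGCGG, searched on both strands, occurred in 7 of the 18 windows and 4 of the 10, against 35.7% of all windows. Below are the bases ahead of every annotated transcript start, 5′ to 3′, with CG in capitals. The examples, chosen after their values were seen, are the abundant Kcnc1 (chr7:46396218-46396467, forward strand, 30 CG) and Scn2b (chr9:45117626-45117781, forward, 0 CG) and the near-silent Scn11a (chr9:119825457-119825706, reverse, 3 CG) and Cacna1f (chrX:7606853-7607082, forward, 4 CG). The CG-rich window of Cacna1d lies inside the annotated gene and is not among them.
Kcnc1: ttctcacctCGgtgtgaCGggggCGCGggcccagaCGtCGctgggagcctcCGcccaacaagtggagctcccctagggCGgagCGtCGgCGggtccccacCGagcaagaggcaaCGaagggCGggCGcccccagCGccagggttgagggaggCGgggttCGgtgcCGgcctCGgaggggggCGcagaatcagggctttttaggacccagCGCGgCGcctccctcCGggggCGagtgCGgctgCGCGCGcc
Scn2b: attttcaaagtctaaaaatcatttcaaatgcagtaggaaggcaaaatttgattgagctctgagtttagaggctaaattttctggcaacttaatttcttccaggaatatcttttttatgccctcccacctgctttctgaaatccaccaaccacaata
Scn11a: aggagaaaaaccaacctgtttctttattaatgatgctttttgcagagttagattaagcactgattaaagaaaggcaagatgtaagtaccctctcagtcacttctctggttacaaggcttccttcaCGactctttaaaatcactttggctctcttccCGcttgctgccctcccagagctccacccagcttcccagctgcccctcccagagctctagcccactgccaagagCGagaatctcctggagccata
Cacna1f: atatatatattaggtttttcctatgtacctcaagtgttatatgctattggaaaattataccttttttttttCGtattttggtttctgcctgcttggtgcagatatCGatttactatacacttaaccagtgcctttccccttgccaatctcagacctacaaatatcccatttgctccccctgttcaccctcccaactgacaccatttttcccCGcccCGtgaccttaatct

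The comparison of Hap-I adults with C57 adults, meant to show the transgene, set brain-like against kidney-like libraries, so genotype and tissue content cannot be told apart. Eif2s3y, which lies on the Y chromosome, was at 5 TPM or more in 4 of 4 Hap-I adults and 0 of 4 C57 adults, so sex cannot be told apart from them either. Of 32 channel genes tested, 30 were higher in Hap-I adults and Kcnq1 was lower, with limma on log2(TPM + 1), Benjamini-Hochberg adjustment over all 14249 genes and a threshold of 0.05. Over all genes 49.2% were higher and 27.6% lower. The filter of 1 TPM in 4 libraries was passed by 26 of the 32 members through the Hap-I libraries alone, so the count describes them and supports nothing further. After median-of-ratios rescaling, which moved the median of all genes from a log2 difference of 0.43 to 0.02, 5461 genes were higher and 5400 lower, against 7009 and 3933 before it. The members were then again 30 higher and 1 lower.

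The largest differences were those of Scn3b (log2 difference 6.63 ± 0.16, SE, adjusted p = 3.83e-11) and Scn2b (6.48 ± 0.14, adjusted p = 2.16e-11). No kidney-like library exceeded 0.365 TPM for Scn3b or 0.590 TPM for Scn2b, so both passed the filter through the Hap-I libraries alone. Their direction followed from that, and these values are a description. Scn4b did not pass (0.80 ± 0.68, adjusted p = 0.298). Kcnq1 stood at 0.163, 0.329, 0.331 and 0.164 TPM in Hap-I adults and at 16.7, 19.3, 17.7 and 21.6 TPM in C57 adults, a log2 difference of -3.99 ± 0.14 (adjusted p = 6.1e-10). It passed the filter through the C57 libraries alone, so its direction followed from that and its values are a description too. Besides Kcnq1, the highest ratios of C57 to Hap-I adult means were those of Kcna7 and Scn4a, both under 0.3 TPM in every library. The C57 mean was under 1% of the Hap-I adult mean in 18 of the 28 genes at 5 TPM or more in a brain-like group and between 1 and 5% in 7. Above that stood Scn4b (33.3%) and Cacna1g (9.99%), among others. The Scn4b share rests on a Hap-I adult mean raised by library 4, at 148 TPM against 12.2 to 24.8 TPM in the rest of the group.

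**Figure D3:**
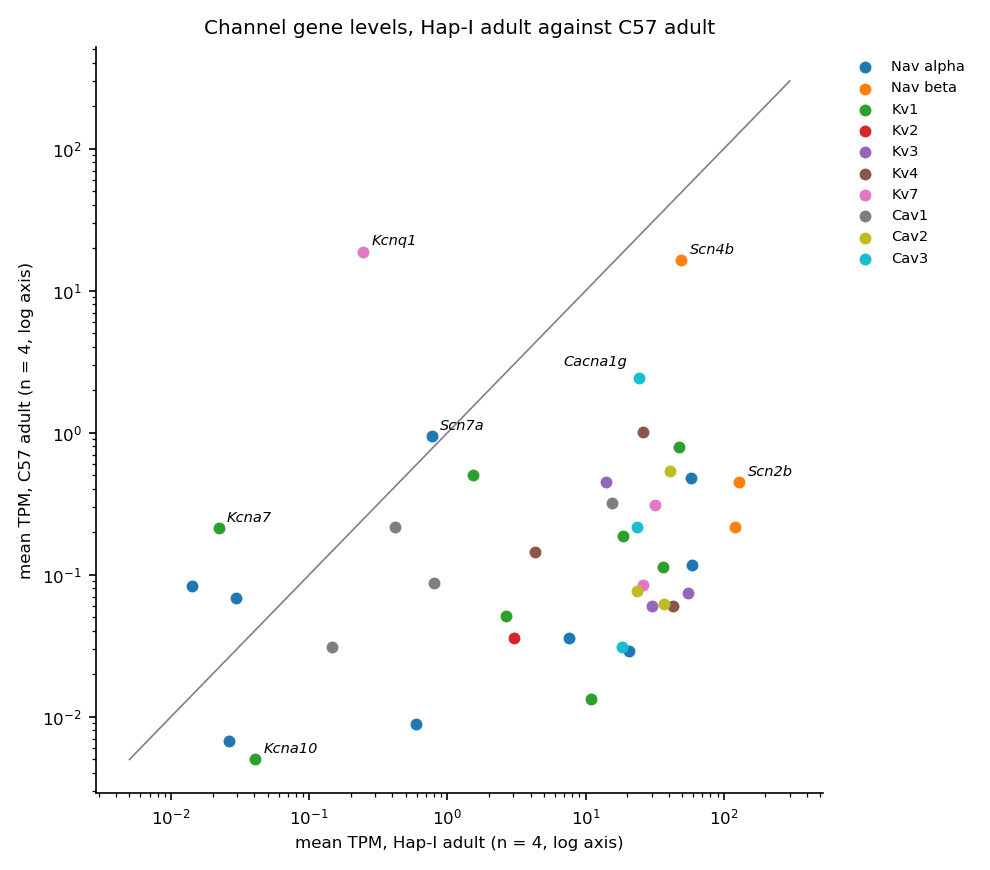
Mean TPM of 40 channel genes in Hap-I adults (horizontal) and C57 adults (vertical), both on log axes with means under 0.005 drawn at 0.005, coloured by family. The diagonal marks equal levels. Most genes lie far below it, and Kcnq1 lies far above it.

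Genes for channel partners were taken in this comparison from lists chosen with earlier results of these data known. Of 56 tested, 54 were higher and 2 lower in Hap-I adults, beside the 49.2% of all genes that were higher. In C57 adults 32 of the 56 had no library at 1 TPM, so these passed the filter through the Hap-I libraries alone and their counts, too, describe the lists and support nothing further. The fibroblast growth factor homologous factors that bind sodium channels were higher in 4 of 4 tested, Fgf13 by 6.76 and Fgf14 by 3.85 log2 units. Kv1 beta subunits were higher in 3 of 3, Kcnab2 by 6.05 and Kcnab1 by 5.76. The Kv4 partners of the KChIP and DPP families were higher in 6 of 6, Dpp6 by 6.77 and Kcnip4 by 5.10. Calcium channel beta subunits were higher in 4 of 4, with Cacnb1 at 4.35, alpha2delta subunits in 3 of 3, with Cacna2d3 at 5.98, and gamma subunits in 6 of 6. Silent Kv subunits were higher in 8 of 8, the ether-a-go-go family in 4 of 4 and genes of the initial segment and node in 15 of 15, with Sptbn4, the initial segment spectrin, at 4.79. The Kcne list split. Kcne1 was lower (-4.15 ± 0.14, adjusted p = 4.8e-10) and so was Kcne4 (-1.15), and Kcne1l was higher (1.19). The Hap-I groups on western diet were also set against those without it. Of the members tested, 31 of 31 were lower in Hap-I adults on western diet than in Hap-I adults without it. Of all genes 67.8% were lower and 16.7% higher there. Kcnq1 missed the filter in this adult pair, where its lowest western diet library stood at 0.861 TPM, so it is not among the 31. Its levels still lay higher with the diet, at 0.861 to 5.14 TPM against 0.163 to 0.331 TPM, without overlap. With no low filter, 1 member was called higher and 39 lower between these adults. In Hap-I aged mice on the diet 32 of 33 members were lower and Kcnq1 was higher than in Hap-I aged mice without it. Of all genes 62.4% were lower and 18.7% higher there. No library on the diet reached 1 TPM for 27 of the 31 members in adults and 28 of the 33 in aged mice, so their direction followed from the filter and the counts are a description. The call of Kcnq1 in aged mice (1.31, adjusted p = 0.0343) was lost on leaving out library 2 (0.83, 0.0579) or 3 (1.30, 0.0625) on the diet, or library 1, 2 or 4 without it (1.10 to 1.31, 0.067 to 0.0954), and with no low filter (0.0678). After median-of-ratios rescaling, calls over all genes came to 4928 higher and 5939 lower in adults, against 2291 and 9299 before it, and to 4877 and 5999 in aged mice, against 2641 and 8813. In both, diet and tissue content cannot be told apart.

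Among the brain-like libraries, Hap-I aged mice were compared with Hap-I adults. No channel gene passed the threshold among 33 tested with limma, and over all 13497 genes 0.0296% were higher and 0.0% lower in aged mice. At an unadjusted p under 0.05 stood 13 of the 33 members and 2081 of all genes. The log2 difference, aged minus adult, was positive in 27 of 33 members with a median of 0.22, beside a median of 0.12 over all genes. The smallest adjusted p was 0.211, for Scn3b (0.56 ± 0.15, SE) and Scn8a (0.42 ± 0.12). Kcnq3 differed by 0.62 ± 0.18 (adjusted p = 0.22), Scn1a by 0.66 ± 0.22 (0.238) and Kcna1 by 0.76 ± 0.29 (0.262). Scn4b went the other way with the widest error (-0.48 ± 0.69, adjusted p = 0.766).

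After median-of-ratios rescaling, with the median of all genes at -0.01, the members' median was 0.08, 22 of 33 were positive and 5 had an unadjusted p under 0.05. Of the 28 genes at 5 TPM or more, 24 had a higher mean in aged mice, against 73.6% of all genes at that level. Adult library 1 was the lowest of the 8 libraries for 15 of those 28 genes, and aged library 1 the highest for 12. The summed neuronal markers were also lowest in adult library 1, at 4247 TPM. Without adult library 1, 23 of 33 members were positive with a median of 0.22, and 12 had an unadjusted p under 0.05. The smallest adjusted p was then 0.257. Summed oligodendrocyte markers were 4416 to 5555 TPM in aged mice and 2783 to 3806 TPM in adults, without overlap, and their part in these differences was not tested. Of the partner lists, 0 genes passed in any.

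**Figure D4:**
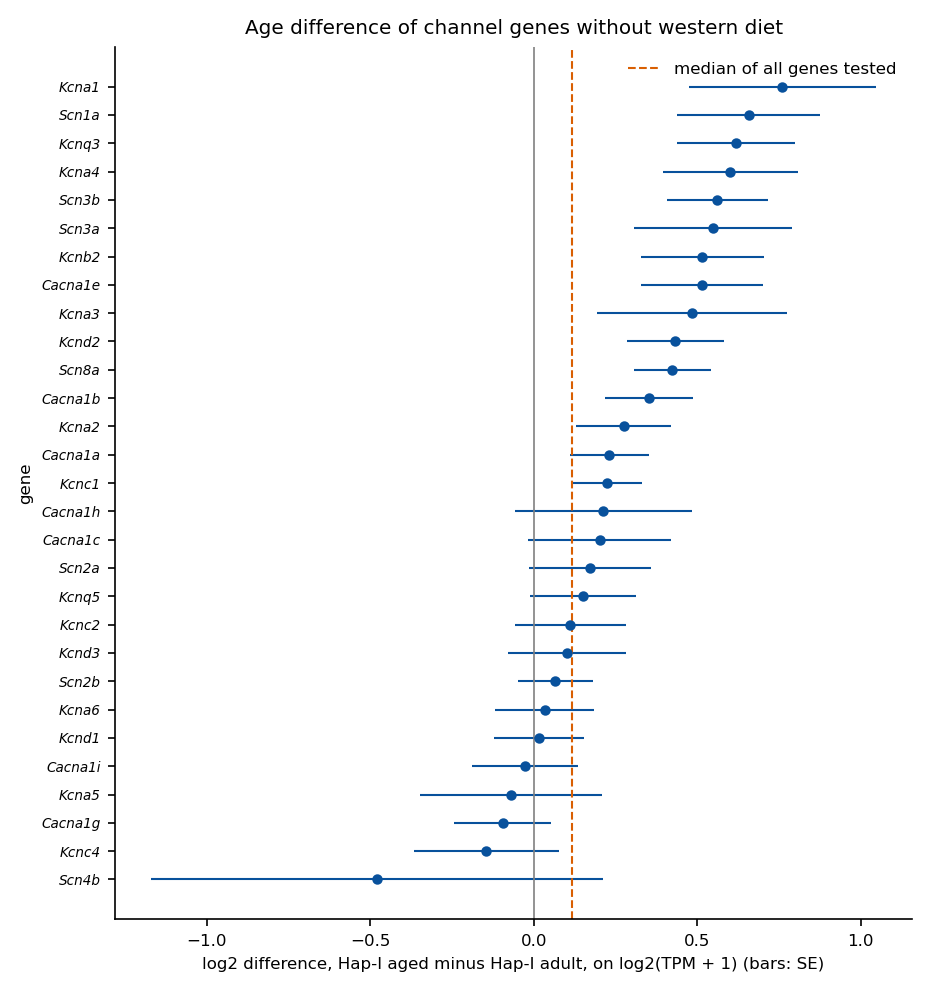
Log2 difference (Hap-I aged minus Hap-I adult, both without western diet) of channel genes on log2(TPM + 1), points with SE bars, sorted by size. The dashed line is the median of all 13497 genes tested, and 24 of the 29 points lie above 0.

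In the kidney-like libraries 5 channel genes passed the filter of 1 TPM in at least 4 of 16 libraries, among them Kcnq1, Scn4b and Cacna1g. All 5 had lower means in each western diet group than in C57 adults. The share of all genes with that order was not counted for this filter. Over all 12923 genes tested, the median log2 difference from C57 adults was -0.80 in Hap-I and -0.59 in Hap-II adults on the diet. Of the 28 genes at 5 TPM or more in a brain-like group, most of them far lower in kidney, 26 had a higher mean in C57 adults than in all 3 groups on the diet, against 79.6% of all genes at that level. Kcnd3, a Kv4 subunit of heart and neurons, reached 1.008 ± 0.433 TPM in C57 adults (SD, n = 4), with at most 0.432 TPM as a mean on the diet. The remaining members had a mean under 1 TPM in all 4 groups. The diet, the transgene, the library series in the titles (A, B and C on the diet, S for the others) and the mitochondrial share cannot be told apart here, since no group carries 1 of them alone.

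Kcnq1 was the most abundant channel gene of C57 kidney. It stood at 2.54, 13.0, 4.16 and 1.63 TPM in Hap-I aged mice on western diet, at 5.14, 3.17, 2.76 and 0.861 TPM in Hap-I adults fed it and at 11.1, 6.73, 1.84 and 4.22 TPM in Hap-II adults fed it, against 16.7, 19.3, 17.7 and 21.6 TPM in C57 adults. No library on the diet reached the lowest C57 library. Its partner Kcne1 followed, at 2.86, 7.56, 2.63 and 0.314 TPM in Hap-I aged mice on the diet, at 5.31, 2.56, 3.59 and 0.795 TPM in Hap-I adults and at 6.73, 5.43, 2.47 and 4.49 TPM in Hap-II adults, against 15.4, 16.4, 17.7 and 20.9 TPM in C57 adults. Again no library on the diet reached the C57 range.

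Scn4b stood at 2.65, 9.43, 3.33 and 0.511 TPM in Hap-I aged mice on the diet, at 4.42, 4.39, 2.90 and 0.527 TPM in Hap-I adults and at 12.5, 6.78, 2.13 and 2.90 TPM in Hap-II adults, against 7.71, 20.8, 17.4 and 19.8 TPM in C57 adults. The Hap-I adults on the diet lay below every C57 library, and the aged and Hap-II groups overlapped with C57. Cacna1g had 1.20, 0.340, 0.224 and 2.00 TPM in aged Hap-I mice fed western diet, 0.364, 1.04, 0.193 and 0.00624 TPM in adult Hap-I mice fed it and 0.765, 0.411, 0 and 0.0369 TPM in Hap-II adults, against 1.84, 2.13, 3.07 and 2.62 TPM in C57 adults. The adults fed western diet lay below every C57 library, and 1 aged library overlapped.

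**Figure D5:**
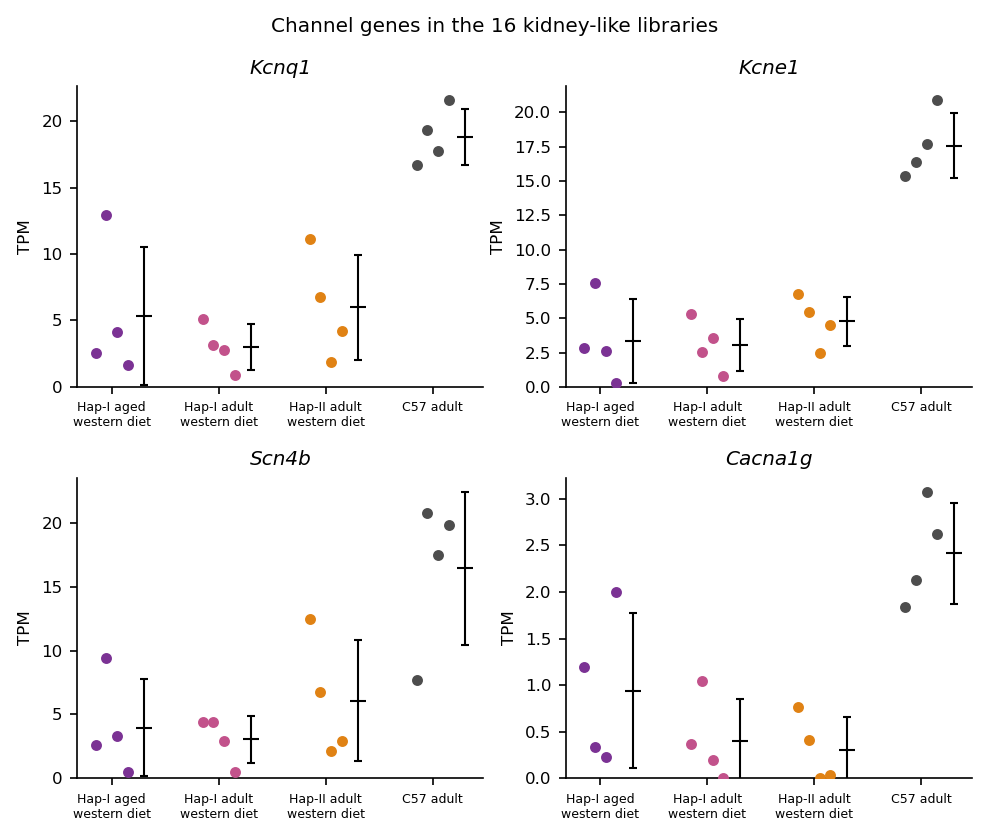
TPM of Kcnq1, its partner Kcne1, Scn4b and Cacna1g in the 16 kidney-like libraries, a point per library with mean and SD to the right of each group (lower bars are cut at 0). For Kcnq1 and Kcne1 the C57 libraries lie above all 12 libraries on western diet.

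Between Hap-I adults on western diet and C57 adults, limma called 4 of the 5 genes lower and 0 higher, where 59.7% of all 12923 genes were lower and 2.28% higher. The log2 differences were -2.43 ± 0.49 for Kcnq1 (SE, adjusted p = 0.00168), -2.18 ± 0.57 for Scn4b (0.00522) and -1.32 ± 0.29 for Cacna1g (0.00246). Over all genes the median difference was -0.80. Median-of-ratios rescaling moved that median to -0.01 and the calls over all genes to 2304 higher and 1831 lower, against 294 and 7715 before it. Kcnq1 (-1.60, adjusted p = 0.00563), Scn4b (-1.37, 0.0319) and Cacna1g (-0.86, 0.0486) were then still called. Without rescaling, these 3 genes kept their calls whichever library of both groups was left out. Under quantile normalization Cacna1g missed the threshold (-0.80, adjusted p = 0.0633). Of these Hap-I adults only library 2 reached 1 TPM of Cacna1g (1.04 TPM). The gene met the filter only with the C57 libraries, so its call is a description. Levels of Eif2s3y were at 5 TPM or more in 3 of 4 Hap-I adults and 2 of 4 Hap-II adults fed western diet, and in 0 of 4 C57 adults. With Y-linked genes as a covariate, Scn4b (-1.46, adjusted p = 0.0713) missed the threshold.

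Between Hap-II adults on western diet and C57 adults, limma called Kcnq1 (-1.69 ± 0.49, adjusted p = 0.017) and Cacna1g (-1.42 ± 0.29, adjusted p = 0.00428) lower, where 36.9% of all genes were lower and 2.73% higher. No Hap-II library reached 1 TPM of Cacna1g and every C57 library did, so within this pair it passed the filter through C57 alone. Its direction followed from that, and its values here are a description. Scn4b was at -1.46 ± 0.57 (adjusted p = 0.0507), beside a median over all genes of -0.59. After median-of-ratios rescaling, with 1661 genes higher and 1262 lower in place of 353 and 4774, Kcnq1 (-1.05, adjusted p = 0.0445) and Cacna1g (-1.05, 0.0283) were still called. Without Hap-II library 3, Kcnq1 missed the threshold (-1.33, adjusted p = 0.074), as it did with Y-linked genes as a covariate (-1.20, 0.0769). Without Hap-II library 1, Scn4b was called as well (-1.85, adjusted p = 0.0155), and likewise without C57 library 1 (-1.76, 0.0296). The comparisons of both lines share the C57 libraries.

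Kidney segment markers were examined in the same libraries. Of 5 thick ascending limb markers, limma called 3 lower in Hap-I adults on western diet than in C57 adults, and 1 lower and 1 higher in Hap-II adults. Of 7 proximal tubule markers it called 5 and 3 lower. Collecting duct markers were lower in 6 of 6 and 3 of 6, and endothelial markers in 6 of 6 in each line. Over all genes 59.7% were lower in Hap-I adults and 36.9% in Hap-II adults. After median-of-ratios rescaling, the thick ascending limb calls were 2 lower and 1 higher in Hap-I and 1 and 1 in Hap-II adults. Proximal tubule markers were then lower in 3 of 7 in each, collecting duct in 3 and 2 of 6 and endothelial in 2 and 1 of 6. Summed thick ascending limb markers were 317 to 1816 TPM in Hap-I aged mice on western diet, 283 to 1123 TPM in Hap-I adults and 763 to 2094 TPM in Hap-II adults, against 1827 to 3425 TPM in C57 adults. Summed proximal tubule markers were 633 to 2821 TPM, 561 to 1099 TPM and 581.5 to 2339 TPM in the same groups on the diet, against 2099 to 3162 TPM in C57 adults. Hap-I adult library 4 and Hap-I aged library 4 on the diet, with the lowest Kcnq1, Kcne1 and Scn4b of their groups, also had the lowest summed thick ascending limb markers of theirs. In the aged and Hap-II groups, Kcnq1 and Scn4b were highest in aged library 2 and Hap-II library 1, which also had the highest such sums of their groups. The order did not hold in every group. In Hap-I adults on the diet, Kcnq1 and Scn4b were highest in library 1, while the thick ascending limb sum was highest in library 2 (1123 TPM, against 977 TPM in library 1). In Hap-II adults both were lowest in library 3, while that sum was lowest in library 4 (763 TPM, against 791 TPM in library 3). Proximal tubule sums in Hap-I adults on the diet were highest in library 1 (1099 TPM) and lowest in library 4 (561 TPM), as Kcnq1 and Scn4b were. In Hap-II adults these sums were highest in library 1 (2339 TPM) and lowest in library 3 (581.5 TPM), again as both genes were. In aged mice on the diet they were highest in library 3 (2821 TPM) and lowest in library 1 (633 TPM), unlike both genes. The part of segment content in the channel values was not tested.

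Partner genes in the same libraries were set beside the shares of all genes called lower, 59.7% in Hap-I adults and 36.9% in Hap-II adults on the diet. In Hap-I adults on the diet Kcne1 (-2.32 ± 0.46, adjusted p = 0.00156) and Kcne4 (-0.94, 0.00408) were lower, and in Hap-II adults they were lower as well (-1.73, 0.012, and -1.26, 0.00234). Calcium channel beta subunits were lower in 3 of 4 tested in each line, with Cacnb3 at -1.67 in Hap-I and -1.89 in Hap-II adults. Of the Kv4 partners, Kcnip3, which also acts as a calcium-binding transcription regulator, was lower by a log2 difference of -1.15 in Hap-I and -1.27 in Hap-II adults. Genes of the initial segment and node were lower in 4 of 6 tested in each line, near the share of all genes in Hap-I adults. After median-of-ratios rescaling few of these calls were left. Kcne1 (-1.49, adjusted p = 0.00922, in Hap-I and -1.07, 0.0489, in Hap-II adults) and Kcnip3 (-0.62, 0.026, and -0.85, 0.0101) were called in both lines, while Kcne4 was called in neither (-0.20, 0.601, and -0.73, 0.0621). Calcium channel beta subunits were then lower in 0 of 4 in Hap-I and 1 of 4 in Hap-II adults, and initial segment and node genes in 1 of 6 and 0 of 6.

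Among kidneys on western diet, 5 channel genes were tested by age and by haplotype and none was called. Between Hap-I aged mice and Hap-I adults, limma called 0 of 5 genes, with 0 at an unadjusted p under 0.05, where 0.0232% of all genes were higher and 0.00774% lower, and 2080 had an unadjusted p under 0.05. The differences ranged from 0.13 ± 0.57 for Scn4b (adjusted p = 0.903) to 0.48 ± 0.49 for Kcnq1 (0.57), beside a median of 0.32 over all genes. Between Hap-I adults and Hap-II adults, limma again called 0 of 5, with 0 at an unadjusted p under 0.05, where 0.0232% were higher and 0.0542% lower and 421 genes had an unadjusted p under 0.05. Kcnq1 was at -0.74 ± 0.49 (adjusted p = 0.817) and Scn4b at -0.72 ± 0.57 (0.817), beside a median of -0.22. These standard errors leave room for sizeable differences either way.

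The age difference without western diet was set against that on the diet in an interaction fit over the 4 Hap-I groups. Of 34 channel genes tested, limma called 0, with 7 at an unadjusted p under 0.05, where 0.0203% of all genes were higher and 0.0203% lower and 1518 had an unadjusted p under 0.05. The smallest adjusted p was 0.431, for Kcna4 (0.60 ± 0.26). The contrast subtracts kidney-like from brain-like libraries, in which most members stood near 0 TPM on the diet side. Kcna4 was listed at 0 in every library on the diet, so its value repeats the age difference among brain-like libraries (0.60). The spread was shared with the near-0 libraries, which would narrow it.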

How the data were processed

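The authors deposited a table of TPM per gene for 24 libraries, with identifiers and no gene names. Per the submitters' processing notes, kallisto and GRCm38 are among the tools and builds named, without versions or roles. The annotation release is not given in the sources used here. Libraries were stranded TruSeq after poly(A) selection, per the labels' protocols. Identifiers were matched to GENCODE M21 on GRCm38 (29732 of 30153). Deposited TPM sum to 904693 to 944019 per library, and depth is unknown, so no counting interval is given.

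TPM were tested as log2(TPM + 1), which understates changes of low genes, with limma 3.58.1 in R 4.3.3 (empirical Bayes with a mean-variance trend, two-sided, Benjamini-Hochberg over all genes, threshold 0.05). Genes needed 1 TPM in at least 4 fitted libraries. Comparisons with brain-like libraries used only the groups compared, and those within kidney-like libraries the 4 kidney-like groups, because channel genes near 0 in kidney would narrow a shared spread. The difference of age effects used the 4 Hap-I groups, so its spread was shared across brain-like and kidney-like libraries. The fit was tested on simulated data. Alternatives tried were no filter, a filter at 5 TPM, adding 0.1 in place of 1, quantile normalization, median-of-ratios, removal of mitochondrial genes, array weights, all 24 libraries, the compared groups alone, each library left out and a replicate block. The Y-linked covariate and leaving out the 2 kidney-like libraries with fewest genes were chosen after seeing the data. Members and lists were chosen with earlier results of these data known. Genes named were the leading member of each family, the 10 highest in each of Hap-I and C57, those past the threshold within kidney-like libraries, the 3 highest ratios of C57 to Hap-I adult means and up to 4 of each partner list by size of change. Cacna1d and the other members described were named after their values were seen. Some genes that the rule takes are not reported here, and counts include them.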

Additional observations from a re-analysis of the deposited data

Results flagged for a closer look

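In 6 of 69 gene and group pairs with a mean of at least 1 TPM, a single library lay far from the other 3 by Dixon's ratio of gap to range, a limit that chance passes in about 1 of 20 groups. In Hap-I adults without western diet, Kcna3 was at 0.640 TPM in library 1, against 3.23 to 3.50 TPM in the other 3. In library 4 of that group, Kcna5 was at 3.42 TPM, against 0.805 to 1.05 TPM, and Scn4b at 148 TPM, against 12.2 to 24.8 TPM. In Hap-I aged mice without the diet, Scn4b was at 43.7 TPM in library 3, against 13.0 to 17.0 TPM. Library 2 of that group was low for Kcnb2, at 3.96 TPM against 4.75 to 4.90 TPM. Library 4 was high for Kcnc2, at 20.1 TPM against 12.9 to 14.0 TPM. The causes were not tested.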

How the results depend on the processing

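Counts of called channel genes were 31, 0, 0, 0, 31, 33 and 0 for Hap-I adults against C57 adults, age without and on the diet, haplotype, diet in adults and in aged mice, and the difference of age effects, and they stayed within 1.5 times of that under every alternative run. Against C57, the 4 genes called lower in Hap-I adults on the diet became 24 with no filter, 2 at 5 TPM, 2 with quantile normalization, 9 with all 24 libraries fitted and 2 with the Y-linked covariate. The 2 called in Hap-II adults became 19, 1, 4 with array weights, 7 with all 24 libraries, 1 with that covariate and 1 without the 2 kidney-like libraries with fewest genes. Leaving out each library gave 3 to 5 and 1 to 4, and 32 to 33 for the diet in aged mice. There Kcnq1 lost its call without aged library 2 on the diet (0.83, adjusted p = 0.0579), library 3 on the diet (0.0625) or libraries 1, 2 or 4 without it (0.067 to 0.0954), and with no low filter (0.0678). Single-gene values were followed for reported genes called in the main fit, and for all those tested in kidneys on the diet against C57. Most came from fits of brain-like against kidney-like libraries. There 26 of 32, 27 of 31 and 28 of 33 members had no kidney-like library at 1 TPM. Their direction followed from the filter, so the tally is a description. The values kept their direction and side of the threshold 1440 times, lost their call 13 times and gained one 4 times, with no change of sign among those compared. The causes were not tested. With the replicate block, channel calls were 0 for age on the diet, 0 for haplotype and 31 for the diet in adults, and calls over all genes 27 higher and 3 lower by age (3 and 1 without it) and 6 and 11 by haplotype (3 and 7). Same-numbered libraries did not deviate together in every pair (r of -0.053 to 0.557), so the numbers were not taken as pairs. Over all genes, calls by age without the diet were 58 higher and 7 lower with all 24 libraries fitted, against 4 and 0. By age on the diet they were 2041 and 158 with array weights and 411 and 32 with all 24 libraries, against 3 and 1, and by haplotype 28 and 23 with array weights, against 3 and 7. Against C57, the Y-linked covariate gave 129 and 3155 in Hap-I adults on the diet, against 294 and 7715, and 184 and 1742 in Hap-II adults, against 353 and 4774. Hap-II adults against C57 gave 127 and 1669 without Hap-II library 3 and 762 and 8944 with array weights. TPM carry no depth, so the precision of the channel genes near 0 in kidney cannot be given.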
